A study of Mus musculus with 4 samples.

Results

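Genes of the IkB family and of NF-kB feedback inhibition were followed in stimulated CD4 T cells with and without the microRNA miR-146a. They comprise the IkB genes Nfkbia, Nfkbib, Nfkbie, Nfkbiz and Bcl3, and Cd83 as an induced NF-kB gene. The others are Tnfaip3, which encodes the ubiquitin-editing enzyme A20, the genes of its binding partners, Tnip1 and Tnip2, and the deubiquitinase gene Cyld. Members were all probe sets whose single gene symbol is among these 10 names, which gave 22 probe sets for 10 of 18193 named genes on the array. The cells carried the 2D2 Tg background, a transgenic T cell receptor that recognises a myelin peptide, and both groups carried it. One group was wildtype and the other, called 2D2KO by the submitters, was miR-146a-deficient, with 2 arrays each. Naive CD4 T cells were sorted and kept for 3 days on plate-bound anti-CD3 at 5 µg/ml, with anti-CD28 at 1 µg/ml, which the treatment label calls soluble. The allele, the ages and the sexes of the mice are not given in the sources used here. Each array is titled a biological replicate, though separate mice or cultures are not named, and p-values measure only the spread between these arrays.

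In a resting T cell, IkB proteins hold NF-kB dimers in the cytoplasm. Signals from the T cell receptor and CD28 pass to the IKK complex, which marks the classical IkB proteins for destruction and so frees NF-kB to enter the nucleus. NF-kB then switches on genes for its own inhibitors, among them Nfkbia and Tnfaip3, which closes a negative feedback loop. miR-146a is a second brake on the same pathway, itself induced by NF-kB and known to act on the adaptor genes Traf6 and Irak1. The comparison asks whether the transcripts of the first kind of brake differ when the second is missing.

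The missing microRNA is shown first, beside the only other mature miRNA found with the same seed in the RefSeq table (GRCm38.p6), which holds 1738. That search did not cover every chromosome. The seed, bases 2 to 8, is in capitals. miR-146a-5p lies on the minus strand at chr11:43374435-43374456 and miR-146b-5p on the plus strand at chr19:46342790-46342811. They match at 20 of 22 positions. Neither has a named probe set among those used here, and the genotype labels could not be checked on the microRNA itself.
miR-146a-5p: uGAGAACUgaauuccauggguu
miR-146b-5p: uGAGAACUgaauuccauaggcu

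No member passed the test for a difference between the genotypes. Of the 10 genes 0 were called by limma at an adjusted p below 0.05, against a background of 0.179% of the 12821 genes tested, and 2, Nfkbie and Nfkbib, had an unadjusted p below 0.05, against 5.26%. The count of 2 became 0 with no intensity trend in limma (unadjusted p = 0.0590 for Nfkbie and 0.127 for Nfkbib). With the mean of probe sets it stayed at 2, but with Cyld (unadjusted p = 0.0329) in place of Nfkbib (0.732). Without deficient replicate 2 the changes of Nfkbie and Nfkbib were 0.28 and 0.14, and without deficient replicate 1 they were 0.83 and 0.59. Nfkbie, which encodes IkB-epsilon, had the largest difference, a signal of 921 ± 7 in wildtype against 1387 ± 372 (SD, n = 2 each) in deficient cells. Nfkbib, which encodes IkB-beta, came next at 2069 ± 81 against 2702 ± 602. Nfkbia, which encodes IkB-alpha, the classical NF-kB-induced inhibitor, read 22710 ± 4602 against 23652 ± 2. Signals are MAS5 values on a linear scale, scaled by the authors to the same trimmed mean on every array, and changes are log2 differences, deficient minus wildtype, of signal + 14.7, which understates the change of dim genes. In bulk RNA, fewer cells of a type and less RNA per cell cannot be told apart.

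The precision behind these values can be read from the 95% intervals of the log2 changes, which run per gene and are not adjusted over genes. On the brightest probe set of each gene, the interval of all 10 members lay within a 2-fold change in either direction. Its outermost bounds were -0.36 for Tnip1 and 0.95 for Nfkbie. For 8 of the 10 it lay within a 1.5-fold change, the exceptions being Nfkbie and Nfkbib. In the fit over probe sets, the interval of the dim 1446718_at of Nfkbib (-1.45 to 0.45) passed a 2-fold change. So did that of 1445213_at of Cyld (0.46 to 2.30), which was tested only with no filter. With no intensity trend the Nfkbie interval ran from -0.033 to 1.15, and without deficient replicate 1 from 0.50 to 1.17, so that under both it passed a 2-fold change while the other 9 did not. The smallest change that any gene on the array was called at was 0.73, or 1.66-fold. With 2 arrays against 2, an exact permutation test of a single gene, two-sided, cannot go below p = 0.333, so all p-values come from the limma fit.

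**Figure D1:**
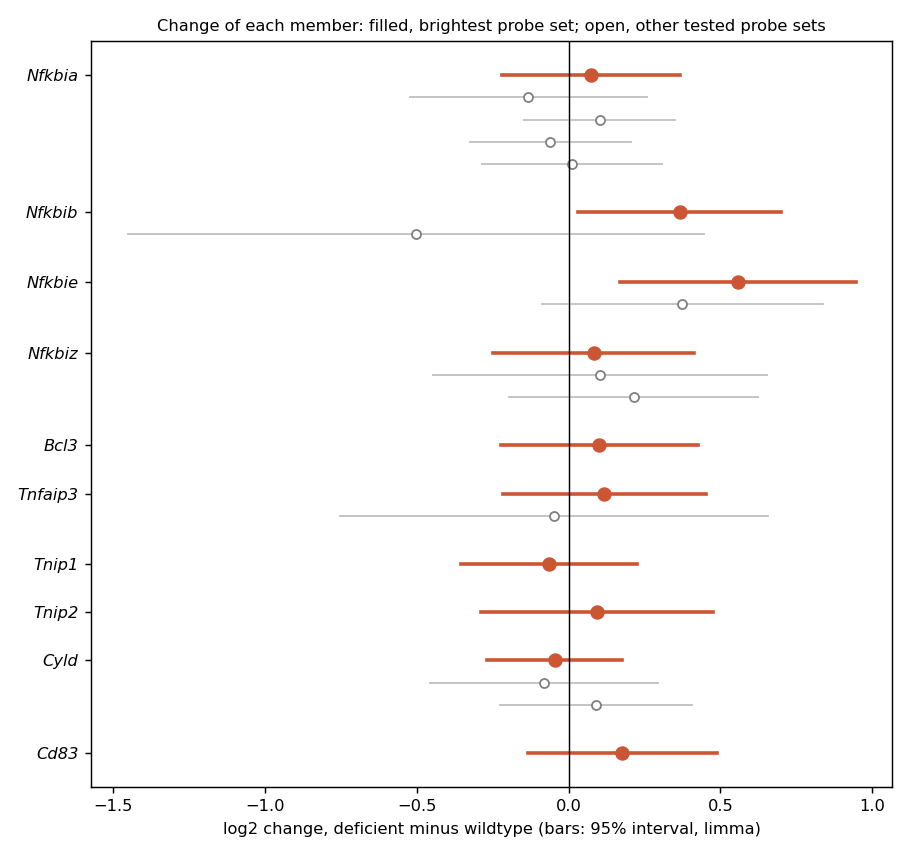
Log2 change of each member, deficient minus wildtype, with 95% intervals from limma; filled points are the brightest probe set of a gene, open points its other tested probe sets. The intervals of Nfkbie (0.17 to 0.95) and Nfkbib (0.03 to 0.70) lie above 0, those of the other 8 genes include it, and 0 of the 10 passed after adjustment over all genes.

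Among the classical cytoplasmic inhibitors, Nfkbia was the brightest member and was not called. Its brightest probe set, 1420088_at, read 19455 and 25964 in wildtype cells and 23654 and 23651 in deficient cells. Both deficient arrays lay between the wildtype arrays. The log2 change was 0.07 ± 0.13 (SE; 95% interval -0.22 to 0.37; adjusted p = 0.989). The other 4 Nfkbia probe sets, 1438157_s_at, 1449731_s_at, 1448306_at and 1420089_at, had changes of 0.01, -0.06, 0.10 and -0.13, and the genotypes overlapped in each. The suffix _s_at marks probes that the array's design matches to more than 1 transcript.

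Nfkbib had a single probe set well above the filter, and its genotypes did not overlap there. Probe set 1421266_s_at read 2012 and 2126 in wildtype cells and 2276 and 3127 in deficient cells. Deficient replicate 2 stood apart from the other 3 arrays. The log2 change was 0.37 ± 0.15 (95% interval 0.03 to 0.70; unadjusted p = 0.0352, adjusted p = 0.909). The second probe set, 1446718_at, was near the filter, which corresponds to a signal of 29.9, and went the other way, from 30.8 and 67.2 to 25.2 and 31.8, with overlap. Without deficient replicate 2 the Nfkbib change was 0.14 (adjusted p = 0.990), and without deficient replicate 1 it was 0.59 (adjusted p = 0.162). With the mean of both probe sets it was -0.07 (adjusted p = 0.978).

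Both Nfkbie probe sets read higher in each deficient array than in either wildtype array, and neither passed the test. IkB-epsilon is an NF-kB-induced inhibitor like IkB-alpha, and in mouse cells is known for damping the late phase of the response. Probe set 1458299_s_at read 926 and 915 in wildtype cells and 1124 and 1650 in deficient cells. Probe set 1431843_a_at read 278 and 264 against 293 and 431. In both, the wildtype pair was close and deficient replicate 2 was the highest array. The changes were 0.56 ± 0.17 (95% interval 0.17 to 0.95; unadjusted p = 0.0104, adjusted p = 0.635) in the fit over genes and 0.37 ± 0.20 (adjusted p = 0.935) for the second in the fit over 27022 probe sets. By unadjusted p Nfkbie ranked 209 of the 12821 genes. Without deficient replicate 2 its change was 0.28, and without deficient replicate 1 it was 0.83 and passed. Each time 1 deficient array was left, and only the wildtype pair gave a spread within a genotype. That pair differed by a log2 value of -0.02. The SE of 0.15 without deficient replicate 1 therefore came mainly from limma's intensity trend over all genes.

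The nuclear IkB proteins, which modify NF-kB on DNA rather than holding it in the cytoplasm, had 0 calls. Nfkbiz encodes IkB-zeta, a cofactor for a second wave of NF-kB genes. Its brightest probe set, 1417483_at, read 809 and 853 against 773 and 1001, with a change of 0.08 ± 0.15 (95% interval -0.25 to 0.41; adjusted p = 0.989). The deficient arrays lay on either side of the wildtype pair. Of its dimmer probe sets, 1457404_at read 184 and 191 against 218 and 222, without overlap, which gave 0.21 ± 0.18 (adjusted p = 0.964). The remaining one, 1448728_a_at, read 137 and 99.1 against 126 and 127, with overlap.

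Bcl3, an atypical IkB that can act as a coactivator, had 1 probe set, 1418133_at. It read 647 and 811 in wildtype cells and 762 and 794 in deficient cells. Both deficient arrays fell between the wildtype arrays, and the change was 0.10 ± 0.14 (95% interval -0.22 to 0.42; adjusted p = 0.985).

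**Figure D2:**
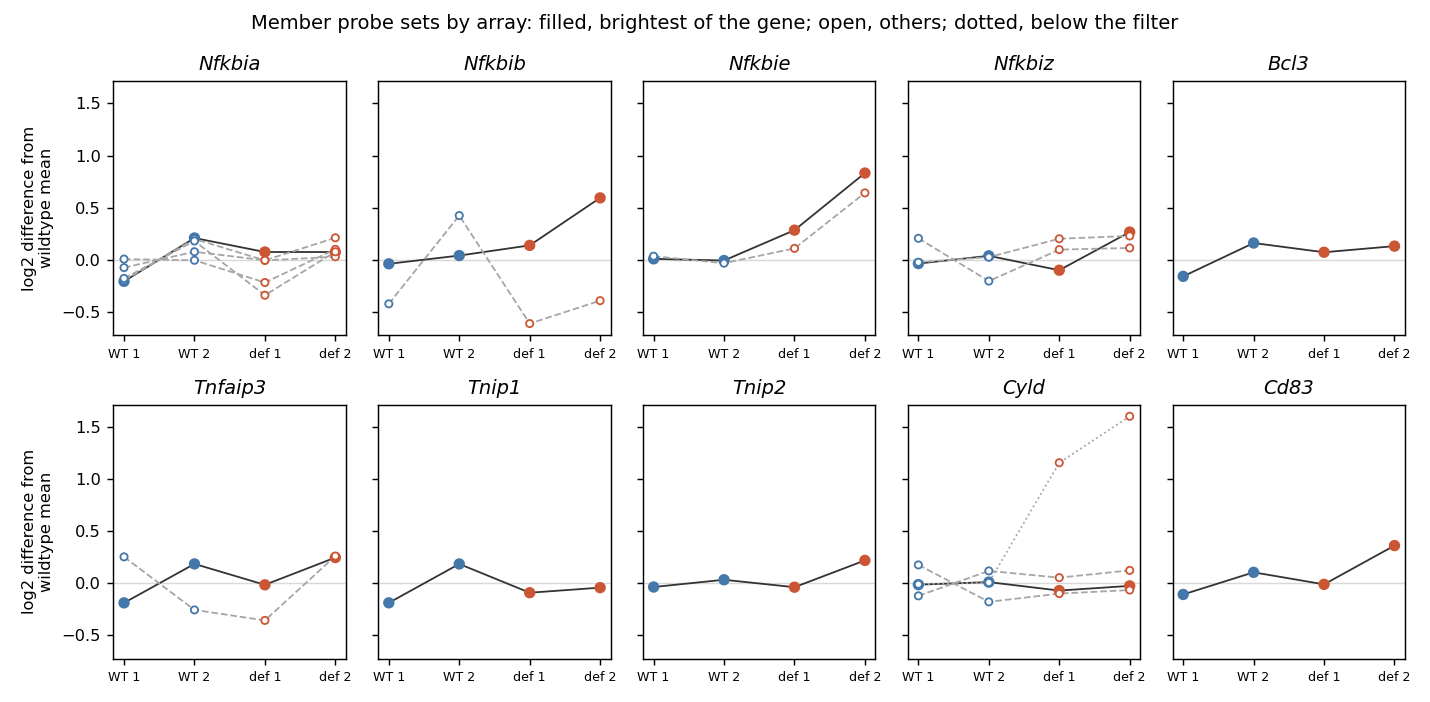
Log2(signal + 14.7) of every member probe set on each array, as the difference from that probe set's wildtype mean; lines join the arrays of 1 probe set and carry no order. Both Nfkbie probe sets are highest in deficient replicate 2, most other lines stay near 0, and the dotted Cyld line is a probe set below the filter.

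Tnfaip3, Tnip1, Tnip2 and Cyld encode A20, a ubiquitin-editing enzyme that shuts off signalling upstream of IKK, its binding partners ABIN-1 and ABIN-2, and a deubiquitinase that acts on the same adaptors. Tnfaip3 read 1657 and 2152 against 1870 and 2245 on probe set 1433699_at. The genotypes overlapped, and the wildtype arrays differed from each other by more than the genotype means did. Its change was 0.12 ± 0.15 (95% interval -0.22 to 0.45; adjusted p = 0.983). The dimmer Tnfaip3 probe set, 1450829_at, read 122 and 81.4 against 74.9 and 123, a change of -0.05 ± 0.31.

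Tnip1 read 3227 and 4183 against 3452 and 3571 on probe set 1427689_a_at, so that the deficient pair lay inside the wildtype range. The change was -0.07 ± 0.13 (95% interval -0.36 to 0.23; adjusted p = 0.989). Tnip1 lies on chromosome 11, as does Mir146, the miR-146a gene. The 250 bases before the Tnip1 start are at chr11:54962941-54963190, and miR-146a-5p is at chr11:43374435-43374456. Tnip2, on probe set 1419488_at, read 293 and 309 against 293 and 353, with a change of 0.09 ± 0.17 (95% interval -0.29 to 0.47; adjusted p = 0.989).

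Cyld was the most tightly measured member on its brightest probe set, 1429618_at, at 2054 and 2089 against 1974 and 2037. The deficient arrays both lay below the wildtype arrays, but by a change of only -0.05 ± 0.10 (95% interval -0.27 to 0.18; adjusted p = 0.989). Probe sets 1429617_at and 1429201_at had changes of 0.09 ± 0.14 and -0.08 ± 0.16, with overlap. The fourth Cyld probe set, 1445213_at, was below the filter and so was not tested with the others: it read 9.85 and 10.1 in wildtype cells against 40.5 and 60.5 in deficient cells. With no filter, over 45037 probe sets, its change was 1.38 ± 0.38 (unadjusted p = 0.00959, adjusted p = 0.824), and it moved the mean over the 4 Cyld probe sets to 0.34 (adjusted p = 0.815).

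Cd83, a surface protein induced on activated lymphocytes and dendritic cells, read 3370 and 3907 in wildtype cells and 3605 and 4670 in deficient cells on probe set 1416111_at. Deficient replicate 2 was the highest array and deficient replicate 1 lay between the wildtype arrays. The change was 0.18 ± 0.14 (95% interval -0.13 to 0.49; adjusted p = 0.974).

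As a group the members leaned slightly upward. Of the 10 genes 8 had a change above 0 and 2 below, with a median of 0.10 beside -0.01 over all genes tested, of which 47.5% had a change above 0. The median over members was 0.27 without wildtype replicate 2, 0.23 without deficient replicate 1, and on the other side of 0, at -0.01 each, without wildtype replicate 1 or deficient replicate 2. For 2 members, Nfkbib and Nfkbie, both deficient arrays lay above both wildtype arrays, against 15.9% of all genes, and for 1, Cyld, both lay below, against 17.7%. Of the 22 member probe sets 21 passed the filter. Among these 21, 0 were called (background 0.167% of 27022), 4 lay higher without overlap (background 14.2%) and 1 lower (background 20.0%).

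**Figure D3:**
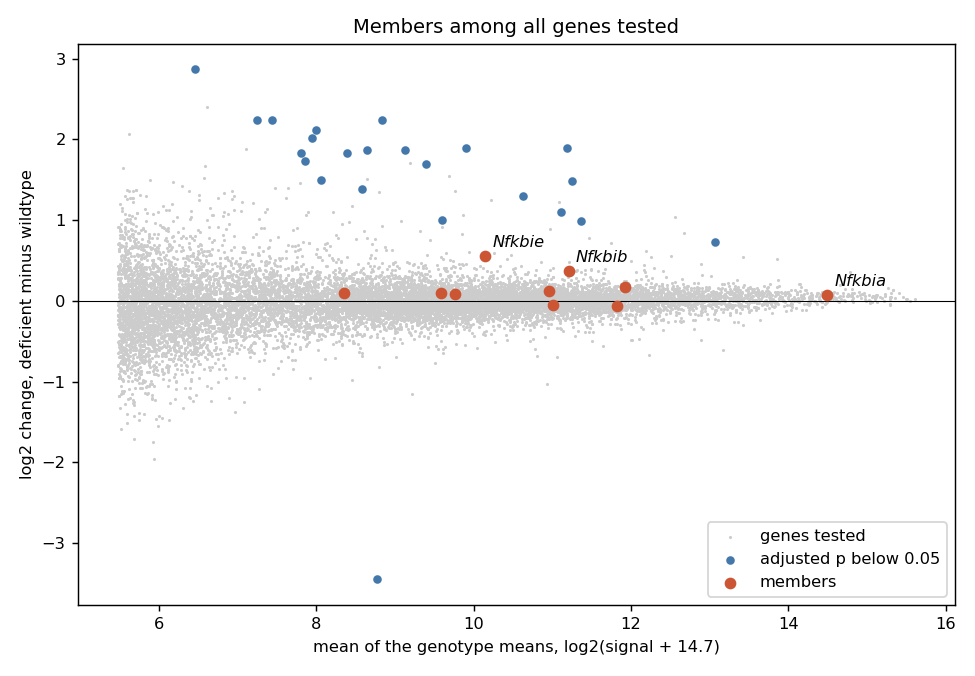
Log2 change against mean level, log2(signal + 14.7), for the 12821 genes tested, with the 23 called genes and the 10 members marked. Nfkbie (0.56) and Nfkbib (0.37) have the highest changes of the 10 members, and none of the 10 is among the called genes.

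For 8 of the 10 members the arrays of 1 genotype differed by more than the genotype means did. The share over all genes is not given here, so this count does not set the members apart. Replicate 2 was above replicate 1 in 9 of the 10 members within the wildtype pair and in 9 of 10 within the deficient pair, where over all genes these shares were 50.8% and 48.8%. The exceptions were Nfkbie in wildtype cells and Nfkbia in deficient cells, at log2 differences of -0.02 and -0.00018. The median absolute log2 difference over members was 0.15 within the wildtype pair, 0.26 within the deficient pair and 0.10 between the genotype means, beside 0.17, 0.17 and 0.12 over all genes. A difference of means of 2 is less noisy than one of single arrays. In the wildtype pair the widest gaps were those of Nfkbia (0.42), Tnfaip3 (0.37), Tnip1 (0.37) and Bcl3 (0.32). In the deficient pair they were those of Nfkbie (0.55), Nfkbib (0.46), Cd83 (0.37) and Nfkbiz (0.37). Deficient replicate 2 was the highest array for 12 of the 21 tested member probe sets and for 20.2% of all tested probe sets, and wildtype replicate 1 was the lowest for 10 of the 21 and for 21.7% of all. The members share these 4 arrays and are not independent of each other.

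**Figure D4:**
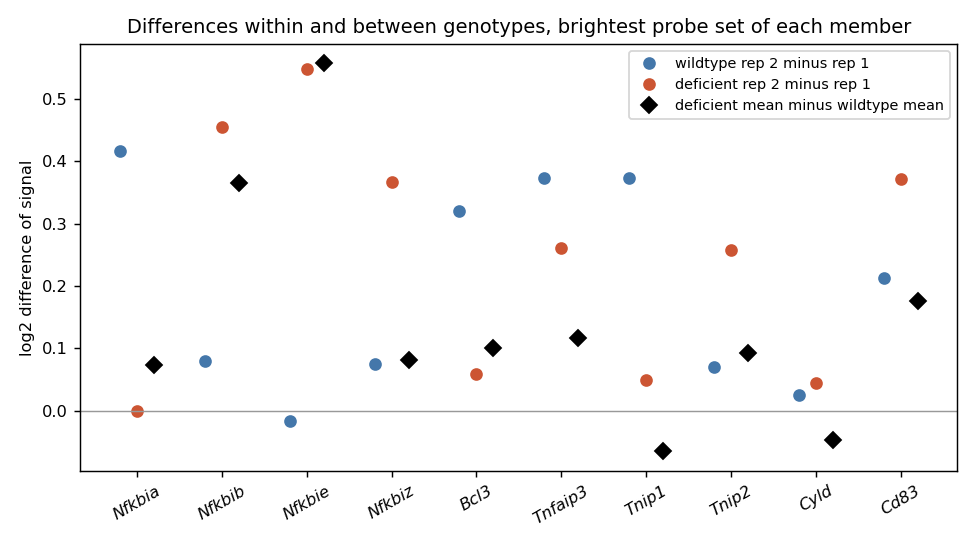
Log2 difference between the replicates of each genotype (circles) and between the genotype means (diamonds) for the brightest probe set of each member. For 8 of the 10 members the difference between genotypes is smaller than at least 1 of the gaps within a genotype. The share over all genes is not given. For Nfkbie the wildtype gap is -0.02 and the deficient gap (0.55) is close to the difference between genotypes (0.56).

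Promoter sequence was read for 8 of the 10 genes from the RefSeq table (GRCm38.p6), as the 250 bases before the annotated start. Nfkbiz and Cd83 had no entry. A loose NF-kB motif, GGGNNNNNCC on either strand, with overlapping matches counted, was found for 6 of the 8, and in 45.8% of all 32851 promoter windows of that length. The members are counted per gene and the share per window, so the values are not strictly alike. Tnfaip3 was read in windows at chr10:19011964-19012213 and chr10:19015411-19015660, both with loose matches. A tighter form, GGGANTTTCC, every match of which is also a match to the loose form, was found for 2, Nfkbia and Cyld, and in 0.356% of all windows. Below are the 2 genes with the tight form, and Nfkbie and Nfkbib, which had the largest differences on their brightest probe sets. Capitals mark matches to the loose motif, 5′ to 3′ on the gene's strand. The windows are chr12:55492648-55492897 on the minus strand for Nfkbia, chr8:88696778-88697027 on the plus strand for Cyld, chr17:45555450-45555699 on the plus strand for Nfkbie and chr7:28766645-28766894 on the minus strand for Nfkbib.
Nfkbia: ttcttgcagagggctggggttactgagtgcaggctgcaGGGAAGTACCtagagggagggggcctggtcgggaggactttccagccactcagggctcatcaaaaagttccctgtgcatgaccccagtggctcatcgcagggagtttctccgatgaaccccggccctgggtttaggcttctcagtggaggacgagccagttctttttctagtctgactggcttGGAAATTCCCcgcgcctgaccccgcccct
Cyld: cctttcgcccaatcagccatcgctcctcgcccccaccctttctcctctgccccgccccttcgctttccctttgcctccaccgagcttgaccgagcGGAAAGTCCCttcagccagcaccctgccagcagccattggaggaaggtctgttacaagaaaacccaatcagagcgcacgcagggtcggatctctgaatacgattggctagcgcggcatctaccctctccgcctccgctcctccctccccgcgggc
Nfkbie: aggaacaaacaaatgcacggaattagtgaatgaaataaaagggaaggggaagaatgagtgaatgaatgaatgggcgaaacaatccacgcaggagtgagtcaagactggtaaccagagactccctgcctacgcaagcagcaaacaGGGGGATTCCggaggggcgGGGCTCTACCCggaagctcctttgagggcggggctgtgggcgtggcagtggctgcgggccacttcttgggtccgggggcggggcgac
Nfkbib: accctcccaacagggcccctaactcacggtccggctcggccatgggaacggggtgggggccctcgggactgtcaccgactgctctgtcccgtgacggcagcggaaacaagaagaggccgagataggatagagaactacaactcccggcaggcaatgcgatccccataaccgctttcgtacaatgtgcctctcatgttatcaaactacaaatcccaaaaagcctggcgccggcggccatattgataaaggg

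The tight match of Nfkbia spans bases 29 to 20 before the start and that of Cyld begins 155 bases before it. Nfkbie has 3 loose matches, of which 2 overlap, and Nfkbib has 0 in this window. The remaining loose matches belonged to Bcl3, Tnfaip3 and Tnip1, and Tnip2 had 0. A match describes letters only, and binding was not measured.

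Around the members, the rest of the pathway gave few calls. Of the 5 NF-kB subunit genes listed, 4 were tested, 0 were called, and their changes ran from -0.17 for Rel to 0.11 for Nfkb2, with Relb at 0.03. Of 18 further IkB and feedback genes, 16 were tested and 0 called, with a median of 0.05. The smallest p among them was that of Otulin, which encodes a deubiquitinase of linear ubiquitin chains and read 2431 and 2380 against 3054 and 3039, a change of 0.34 ± 0.09 (adjusted p = 0.511). Usp18, an interferon-induced protease that removes a ubiquitin-like modifier, and Pdlim2, a ubiquitin ligase for nuclear RelA in mice, had changes of 0.43 and -0.14. Neither passed (adjusted p = 0.953 and 0.975).

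Upstream of the inhibitors, most changes were small and below 0. Of the 20 genes listed for IKK and its adaptors 17 were tested, with 13 changes below 0, a median of -0.10 and 0 calls. Over all 12821 genes tested, 6729 had a change below 0 and the median was -0.01. The name of the brightest probe set of Irak1, a kinase and established miR-146a target, ends in the suffix _x_at. Whether its probes read Irak1 alone was not tested. That probe set read 2848 and 2712 against 885 and 2077. The Irak1 change was -1.03 ± 0.31 (adjusted p = 0.621) there, and -0.30 with the mean of the Irak1 probe sets. Without deficient replicate 2 it was -1.63 and passed (adjusted p = 0.00059), with the lower deficient array alone, and without deficient replicate 1 it was -0.42. Ikbke and Tbk1, the IKK-related kinases, had -0.21 and -0.13. Of 9 genes on the route from the T cell receptor 8 were tested, with 6 changes below 0 and 0 calls. Malt1, the paracaspase that cleaves A20 in T cells, read 2219 and 2548 against 1853 and 1925, a change of -0.33 ± 0.11 (adjusted p = 0.681). Prkcq, which encodes protein kinase C theta, had -0.29 ± 0.12 (adjusted p = 0.909) and Pdpk1 had -0.09.

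Among 24 further genes, known to be induced by NF-kB, 21 were tested, with a median change of 0.11. Of these 2 rose, Ccl22 and Il2, and 0 fell. Ccl22, a chemokine of dendritic and B cells, read 549 and 420 against 1625 and 2053, a change of 1.89 ± 0.16 (adjusted p = 0.00554). For Il2, the T cell growth factor gene, the change was 0.98 ± 0.12 (adjusted p = 0.0208). Csf2, which encodes GM-CSF, missed the threshold at 0.52 ± 0.09 (adjusted p = 0.116) and passed it without wildtype replicate 1 (0.61) or wildtype replicate 2 (0.43). Ccl22 and Il2 lost their calls with no filter (adjusted p = 0.0700 and 0.158) and with no intensity trend (0.414 and 0.458), and Il2 also with the replicate block (0.0700). Whether inhibitors and other NF-kB genes differ in response was not tested.

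**Figure D5:**
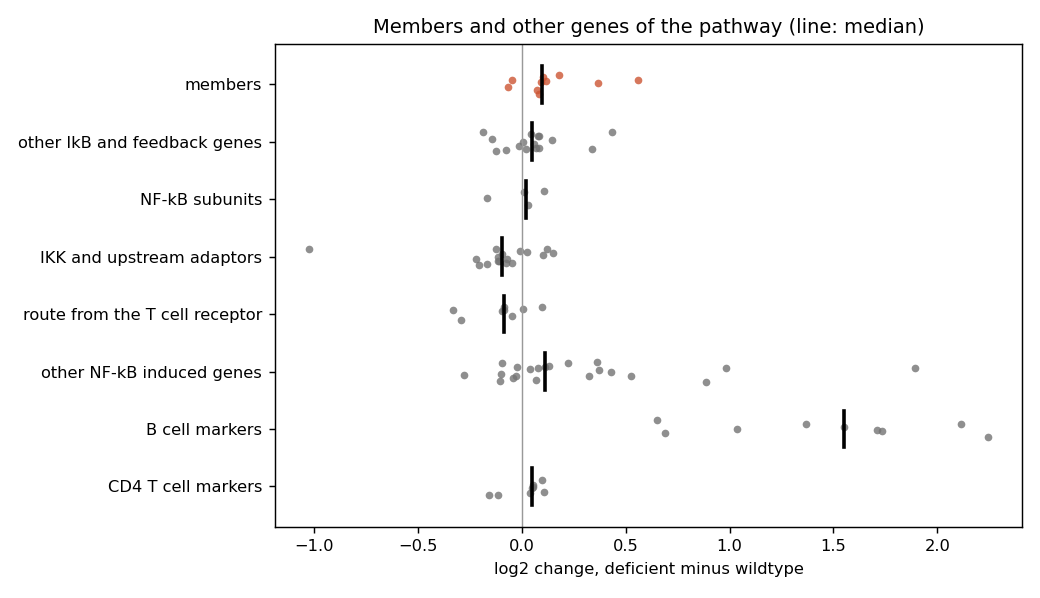
Log2 change, deficient minus wildtype, of the members (top), of 5 lists of pathway genes and of markers of B cells and CD4 T cells, with a point for each gene tested and a line at the median. The member median is 0.10 and that of B cell markers 1.55.

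The 5 genes whose pattern over the 4 arrays lay nearest to that of Nfkbie, by Euclidean distance of log2 values centred on each gene's mean, were Pla1a, Xaf1, Ifi27, Phf11d and Nkg7. Their distances were 0.07, 0.08, 0.08, 0.10 and 0.12. Each had a close wildtype pair, a higher deficient replicate 1 and a still higher deficient replicate 2, as in Ifi27 at 2760 and 2578 against 3117 and 4832. None of the 5 passed the test, with changes between 0.51 and 0.58. With 4 arrays this is a description of likeness only.

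The members are not particular to CD4 T cells, so markers of the labelled cell type and of other cells were read beside them. The labels describe a sort for naive CD4 T cells, which would remove B cells. Of 10 CD4 T cell markers 8 were named on the array, all above the filter, with 0 called and a median change of 0.05; Cd5, Thy1 and Cd28 had -0.16, 0.11 and 0.10. Of 12 B cell markers 11 were named, 9 were tested, 9 lay higher and 3 rose, Ms4a1, Blnk and Cd22, by 2.25, 2.11 and 1.74. With deficient replicate 2 left out Cd22 stood at 1.47 and was not called (adjusted p = 0.0838). Nor was Cd22 called with the replicate block (adjusted p = 0.0527) or when its probe sets were averaged (1.03, adjusted p = 0.385), and with no filter or no intensity trend 0 of these 3 were called. The signal summed over the 11 named markers was 4673 and 6819 in wildtype and 13231 and 13589 in deficient cells, with Pax5 and Fcrla below the filter. Most of that sum was Ighm, the immunoglobulin M heavy chain gene, at 3502 and 5061 against 9064 and 8271. Without Ighm, a sum added after the values were seen, the other 10 came to 1171 and 1758 against 4167 and 5318, and replicate 2 was the higher array in each genotype. Summed dendritic cell markers read 5450 and 6140 against 6139 and 5285, most of it Batf3 (4679 and 5634 against 5281 and 4151). Without Batf3, also a sum added after the values were seen, they read 771 and 506 against 858 and 1135. The largest part of the rest was Fscn1, an actin-bundling protein gene of mature dendritic cells (320 and 218 against 597 and 815). Of the 5 tested markers of this list 1, Fscn1, had a change above 0 and 4 had changes below 0. In that list, Flt3, Itgax, Siglech and Xcr1 were below the filter. Macrophage markers read 578 and 570 against 471 and 545, with Cd14, Itgam and Mrc1 below it. Fscn1, Batf3 and Cd209a on the first list had changes of 1.35, -0.13 and -0.29, and Lyz2, Adgre1 and Csf1r on the second -0.52, -0.47 and 0.21, none past the threshold. Markers of CD8 T and NK cells read 3058 and 3344 against 4656 and 3985. The brightest of them was Gzma, at 1522 and 1771 against 2755 and 1428, with overlap. All 7 tested had changes above 0, the lowest being 0.04 for Cd8b1. Klrk1, Eomes and Klrd1 among them had 1.10, 0.87 and 0.68, none past the threshold. With an array left out, Fscn1 passed when either wildtype array or deficient replicate 1 was dropped, and with median centring, Klrk1 without wildtype replicate 1 and Eomes without wildtype replicate 2. The part of these cells in the member values was not tested. The 3′ over 5′ ratios of control probe sets are lower in intact RNA. They ran from 0.746 to 0.808 for Gapdh, from 1.14 to 1.30 for beta-actin and from 1.92 to 2.74 for the transferrin receptor. Each was lowest in deficient replicate 1, and in both genotypes each was higher in replicate 2 than in replicate 1. The part of these ratios in the member values was not tested.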

How the data were processed

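RNA of 2 wildtype and 2 miR-146a-deficient samples was hybridised to Affymetrix Mouse Genome 430 2.0 arrays from 100 ng per sample, per the labels. The deposited values are linear intensity (MAS5 signal); MAS5 and Transcriptome Analysis Console are the tools in the submitters' processing notes, without version, and the authors scaled every array to a 2% trimmed mean of 500. Neither scanner files nor detection calls were used. Of 45101 probe sets 64 controls were left out; 34945 of the rest have 1 symbol. Signals were taken as log2(signal + 14.7), where the added constant is the 25th percentile of all values. The brightest probe set stood for each gene, and features at or above the 40th percentile (log2 5.48) were tested, which left 12821 genes and 27022 probe sets. Limma 3.58.1 in R 4.3.3 (lmFit, eBayes with intensity trend, two-sided, Benjamini-Hochberg over all features, threshold 0.05) worked with 8.60 degrees of freedom (2 from the arrays). The fit was tested on simulated data.

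The members and lists were chosen with earlier results of these data known. All member probe sets are named, with the 3 genes of smallest p of each pathway or marker list and the 5 genes nearest to the member with the largest change. List genes that the annotation pairs with no probe set are not analysed here. An item of 1 pathway list is not reported here. Log2 deviations of same-numbered arrays correlated across genes with r = 0.05; the labels give no shared source for a number. Promoter and miRNA sequences are from RefSeq (GRCm38.p6). Python 3.11.15 and matplotlib 3.10.9 drew the figures.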

Additional observations from a re-analysis of the deposited data

How the results depend on the processing

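Alternatives covered the pseudocount (1 or the median of all values), no filter, quantile normalization, median centring, no intensity trend, the replicate number as a block, the mean of probe sets and leaving out each array. The count of member probe sets called was 0 under all 11 alternatives run for probe sets, and the count of member genes 0 under 11 of 12; leaving out an array gave 0 to 1, the 1 being Nfkbie without deficient replicate 1. The genes called fell from 23 to 2 with no filter, 0 with no intensity trend (769 at an unadjusted p below 0.05), 14 with the replicate block and 14 with the mean of probe sets, and ran from 27 to 99 with an array left out (99 and 95 without wildtype replicate 1 or 2, 51 without deficient replicate 1). Probe sets called went from 45 to 4 with no filter, 0 with no intensity trend (1651 at an unadjusted p below 0.05) and 71 with the replicate block, and ran from 29 to 140 with an array left out (123 and 140 without wildtype replicate 1 or 2, 29 without deficient replicate 2). The pairing of replicate numbers is not given by the labels, and the block changed no member's call. The median change of member genes ran from -0.012 to 0.27 with an array left out and from 0.09 to 0.12 otherwise. Of 120 member values under alternatives 108 kept direction and side of the threshold, 11 turned direction and 1 passed. With the mean of probe sets, Nfkbia turned to -0.0012, Nfkbib to -0.069 and Cyld to 0.34. With an array left out, Nfkbie ran from 0.28 to 0.83, Nfkbib from 0.14 to 0.59, Nfkbia from -0.13 to 0.28, Nfkbiz from -0.10 to 0.27, Bcl3 from -0.059 to 0.26, Tnfaip3 from -0.070 to 0.30, Tnip1 from -0.25 to 0.12, Tnip2 from -0.037 to 0.22 and Cd83 from -0.0094 to 0.36. The cause was not tested. Signal limits 1446718_at of Nfkbib and 1445213_at of Cyld, which lie near or below the filter, and the number of arrays limits all values.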
